A study of Mus musculus with 4 samples.

Results

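The array held 13 probes, spotted 24 times, for the 7 genes behind the vectors of this experiment and their nearest relatives: Pou5f1 (which encodes OCT4), Sox2, Klf4, Myc, Akt1, Akt2 and Esr1. They were all probes that carry one of these gene names in the scanner files and are not controls, out of 55681 probes on 59305 spots that carried 34821 gene or transcript names, and the rule uses gene names and no measured values. The cells were male mouse embryonic fibroblasts (MEFs) isolated at E13.5 from mice with an Oct4-EGFP transgene, infected with retroviruses for Oct4, Sox2 and Klf4 (OSK) or for these and AKT-MER (OSKA), and sampled at 8 days postinfection (dpi). AKT-MER is myristoylated AKT joined to a modified estrogen receptor, and 4-hydroxytamoxifen (4OHT), the receptor ligand that activates it, or the vehicle was given from 3 dpi. The 4 groups were OSK -4OHT, OSK +4OHT, OSKA -4OHT and OSKA +4OHT, each with 1 array. There were therefore no replicates, no test was run, and every value below compares one culture with another. The cultures were mixed populations, so that fewer cells of a type and less RNA per cell cannot be told apart. The written description of the OSKA +4OHT sample says that AKT-MER was not activated, unlike its title, and the title was used.

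OCT4, SOX2 and KLF4 are transcription factors that together turn fibroblasts towards pluripotency, and MYC is a proliferation factor often added to them. AKT1 and AKT2 are serine/threonine kinases that act downstream of phosphoinositide 3-kinase (PI3K). ESR1 is a nuclear receptor whose ligand-binding domain, when fused to another protein, makes that protein depend on a ligand such as 4OHT. A retroviral vector usually carries the coding sequence of a gene without its untranslated regions. A probe in the coding sequence can therefore read both the transgene and the cell's own gene, whereas a probe in the 3' untranslated region (UTR) reads the cell's own gene. Which stretches the vectors carried, and which AKT paralog of which species AKT-MER contained, is not given in the sources used here.

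The 4 probes with sequence inside a coding region are shown because the comparison of inside and outside the transgenes rests on them. Capitals mark the codons of the only open reading frame for Esr1 and Akt2, the stop codon for Myc, and the 25 bases shared with a probe of another gene for Pou5f1.
Esr1 A_55_P2030883: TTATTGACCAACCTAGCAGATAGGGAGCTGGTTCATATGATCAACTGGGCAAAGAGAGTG
Akt2 A_55_P2066523: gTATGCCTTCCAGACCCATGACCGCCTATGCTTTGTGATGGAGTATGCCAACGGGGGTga
Pou5f1 A_51_P202340: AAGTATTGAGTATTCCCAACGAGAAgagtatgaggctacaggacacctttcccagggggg
Myc A_52_P108346: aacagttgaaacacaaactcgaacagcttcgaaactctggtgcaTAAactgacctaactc

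The Esr1 probe lies in the ligand-binding domain and the Akt2 probe in the kinase domain. The Myc probe has 44 bases before the stop codon and 13 after it. The other 9 probes were placed in the 3' UTR or further downstream, apart from an Esr1 probe designed on a separate cDNA. These places come from the probe sequences, their order along the transcript and general knowledge of the genes, since no annotation of the build of the files was used. The motif AATAAA, a polyadenylation signal, was present on the sense strand of 2 of the 13 probes, against 10.1% of all probes. Both are from the 3' end of Akt2 and share 53 bases, so they are not independent.

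A level here is the log2 intensity of a probe after subtracting the log2 of the array's 75th percentile, and that percentile stood at an intensity of 377 to 462. Between 28516 and 30195 probes per array were well above background, and the lowest of these had levels of −4.90 to −4.54. All 12 fibroblast markers and all 6 macrophage markers examined were measured on every array. The summed level of the macrophage markers was lowest for OSK -4OHT, at 137 times the 75th percentile, and 174 to 197 times on the other arrays. Of 10 pluripotency markers, 7 were measured and Zfp42, Dppa4 and Esrrb were not measurable on any array. All arrays were on 1 slide, and position on the slide and group cannot be told apart. Repeated spots of a probe had a median SD of 0.058 to 0.067, and the scanner software gave an error of about 0.20 for a difference of well measured probes. Neither error covers variation between cultures.

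Esr1, the receptor gene, was read by 4 probes, of which the ligand-binding domain probe differed sharply between OSK and OSKA arrays. The ligand-binding domain probe A_55_P2030883 (NCBI37, chromosome 10, 5489352 to 5489411, bases 1225 to 1284 of the transcript) had an intensity of 7.57 on OSK -4OHT and 7.32 on OSK +4OHT. On OSKA -4OHT its intensity was 3476, and on OSKA +4OHT it was 3837. Neither OSK array was well above background, where negative controls had medians of 4.51 (-4OHT) and 3.98 (+4OHT). Both OSKA arrays lay above the 75th percentile. Set against the dimmest measurable probes, the OSKA level was higher by at least 219-fold without 4OHT and by at least 233-fold with it (7.78 and 7.87 on the log2 scale). With normexp background correction and quantile normalization these bounds were 5.52 and 5.69. That setting adds an offset of 50 to every intensity, above the OSK intensities of this probe, and an offset shrinks ratios. Of the probes well above background in OSKA cells and not in OSK cells, 11.3% were at least 2-fold higher by such a bound without 4OHT and 16.8% with 4OHT. Between the OSKA arrays the probe differed by 0.21 ± 0.20 (software error), which is 1.16-fold.

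The other Esr1 probes did not show this difference in size. Probe A_51_P474658 in the 3' UTR (chromosome 10, 5345046 to 5345105, bases 1993 to 2052) had intensities of 4.36, 4.70, 3.35 and 3.45 on OSK -4OHT, OSK +4OHT, OSKA -4OHT and OSKA +4OHT. Probe A_66_P138072, from the cDNA AK054182 (chromosome 10, 5379218 to 5379277), had 4.83, 4.20, 3.55 and 9.28 in the same array order, which is kept below. Neither was well above background on any array. The last probe, A_52_P237077 (chromosome 10, 5343056 to 5343115, bases 3983 to 4042), was spotted 10 times and had stop codons in all frames, as had 20.7% of all probes. Its mean intensities were 25.6, 10.4, 23.5 and 34.7. It was well above background on 7 of 10, 1 of 9, 8 of 10 and 9 of 9 spots used, so the OSK +4OHT array was the dim one. Its levels on the OSK -4OHT and OSKA -4OHT arrays differed by 0.05 ± 0.41. With 4OHT, OSKA cells exceeded OSK cells at least 2.10-fold, and within OSKA cells it differed by 0.68 ± 0.35 with 4OHT. Spike-in scaling gave a log2 bound of 0.95, short of 2-fold. Normexp with quantile normalization gave a bound of 0.34 and a difference of 0.22. It adds an offset of 50 to every intensity, more than any intensity of this probe, so a 2-fold difference could hardly appear. In OSK cells this downstream probe was at least 1.27-fold lower with 4OHT. On OSKA arrays the intensity of the coding probe was at least 3476 and that of this downstream probe at most 34.7, although intensities of different probes are not on a common scale.

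**Figure D1:**
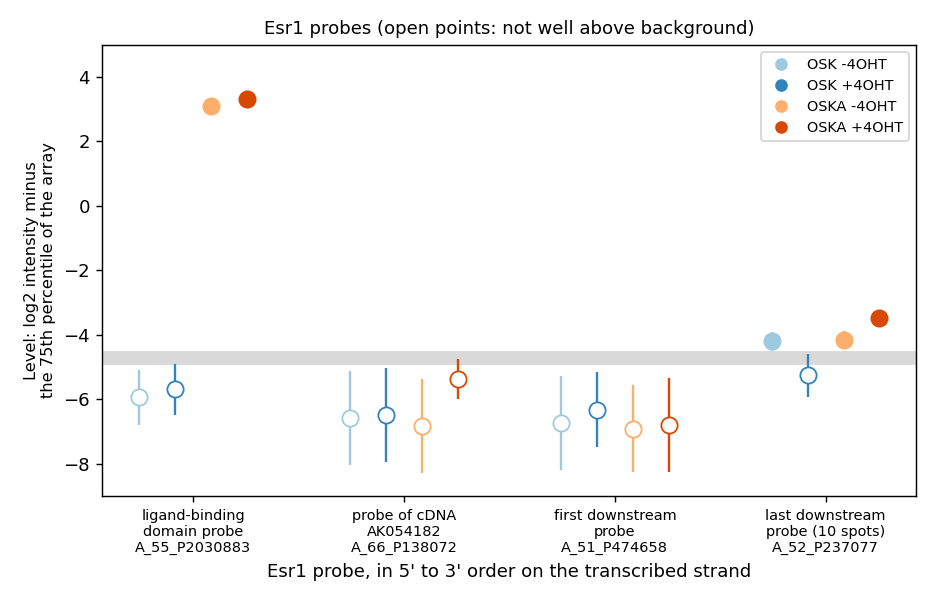
Levels of the 4 Esr1 probes (log2 intensity minus the 75th percentile of the array) on the 4 arrays, with probes in transcript order on the x axis. Points are single arrays, open points are not well above background, error bars are the error of the scanner software, and the grey band spans the lowest measurable levels. The ligand-binding domain probe stands at 3.11 and 3.32 on the OSKA arrays and below the band on the OSK arrays, while the other probes stay at −3.47 or lower.

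The pattern of this probe, measured on both OSKA arrays and on neither OSK array, was held by 508 of 55681 probes (0.912%). The reverse pattern was held by 67 probes (0.120%). The lowest measurable intensities were 14.1 or less on the OSKA arrays and 16.2 or more on the OSK arrays, and the part of this in both counts was not tested. The pattern itself selects for probes that are brighter in OSKA cells, so the bounds are a description. It does not force a higher level, since the lowest measurable levels differ between arrays. Among them, 17 were at least 2-fold higher by both bounds, and only the Esr1 probe was at least 8-fold higher by both. By the smaller of the bounds, the probes with a gene symbol most like it were those of Wdr86 (2.51-fold), Chd5 (2.48-fold), Car6 (2.18-fold), Meltf (2.14-fold) and Sorcs1 (2.12-fold).

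**Figure D2:**
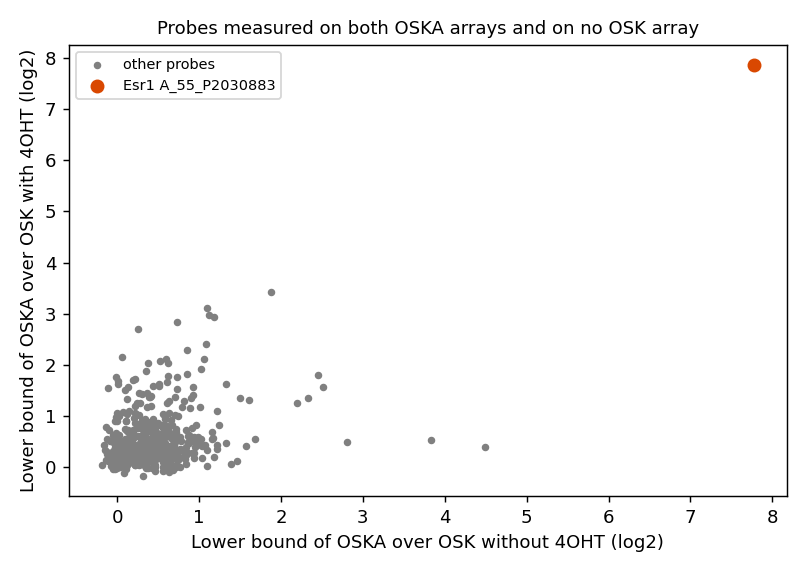
Lower bounds of the log2 difference between OSKA and OSK arrays without 4OHT (x axis) and with 4OHT (y axis) for the 508 probes measured on both OSKA arrays and on no OSK array, each point being a probe. The Esr1 probe lies at 7.78 and 7.87, and 1 probe of the 508 exceeds 8-fold on both axes.

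Akt1, which encodes the main AKT kinase of most tissues, was read by probe A_55_P2066384 in the 3' UTR (chromosome 12, 113892079 to 113892138). Its levels were 5.91, 5.83, 5.82 and 5.90, and its intensities 27805, 21481, 22701 and 22929. It was the brightest of the 13 probes, and on this scale its 4 levels lay within the error of each other. Under spike-in scaling it differed by −0.39 with 4OHT in OSK cells and by −0.54 for AKT-MER without 4OHT, and normexp with quantile normalization gave 0.22 for AKT-MER with 4OHT. No Akt1 probe lay in the coding sequence, so an Akt1 transgene without the 3' UTR would not be read.

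Akt2, the paralog known for its part in insulin signalling, was read by 4 probes. The kinase domain probe A_55_P2066523 (chromosome 7, 28418226 to 28418285, bases 1052 to 1111) had levels of 1.17, 0.85, 1.41 and 1.56. Both OSKA arrays were above both OSK arrays on this scale. The differences between OSKA and OSK cells were 0.24 ± 0.20 without 4OHT and 0.71 ± 0.20 with 4OHT, the latter 1.64-fold. With the arrays scaled on spike-in RNA these differences became −0.20 and 0.59, so that the sign of the first depends on the scaling.

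The downstream Akt2 probes behaved differently. A_55_P2066518 (chromosome 7, 28424405 to 28424464) had levels of 4.68, 4.66, 4.50 and 4.64. A_55_P2025228 (28424412 to 28424471), which shares 53 bases with it, had 4.50, 4.48, 4.38 and 4.49. A_66_P135179 (28425375 to 28425434), from a longer Ensembl transcript, had −0.89, −1.06, −1.08 and −1.45. Between OSKA and OSK cells with 4OHT these probes differed by −0.02, 0.01 and −0.39, against 0.71 for the kinase domain probe. The gaps between the coding and the downstream probes were 0.73, 0.70 and 1.10 (each ± 0.29). A single scaling factor per array cancels in these gaps. Normexp with quantile normalization does not cancel, and gave 0.65 for the kinase domain probe against 0.03, 0.01 and −0.23. Over 3906 pairs of probes on one RefSeq transcript, the median gap in this comparison was 0.137 and the 95th percentile 0.570. Such pairs do not cover A_66_P135179, which belongs to the Ensembl transcript. Without 4OHT the Akt2 gaps were 0.42, 0.35 and 0.42, inside the 95th percentile of 0.693. Within OSKA cells, 4OHT moved the kinase domain probe by 0.15 and the downstream probes by 0.14, 0.11 and −0.37. In OSK cells, which carry no AKT-MER, it moved the kinase domain probe by −0.32 and the downstream probes by −0.03, −0.02 and −0.17, which gave gaps of −0.30, −0.31 and −0.15. Only 1 coding probe on 1 spot per array stands behind the Akt2 gaps.

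The reprogramming factor genes were read by 1 probe each. Pou5f1 was read by A_51_P202340 in the coding sequence (chromosome 17, 35647280 to 35647340), which spans 61 bases of the genome with 60 bases of probe. Its levels were 1.81, 1.23, 1.29 and 1.71, with intensities of 1617, 885, 985 and 1259. The highest levels were those of OSK -4OHT and OSKA +4OHT. The differences with 4OHT were −0.58 ± 0.20 in OSK cells and 0.43 ± 0.20 in OSKA cells. Between OSKA and OSK cells they were −0.52 without 4OHT and 0.48 with 4OHT. Under spike-in scaling these differences were, in the same order, −0.89, 0.44, −0.96 and 0.37. Since the probe lies in the coding sequence, vector and endogenous Pou5f1 transcripts cannot be told apart. A probe of Gm5712, a noncoding RNA gene, shares 25 of its bases and had levels of −0.64, −1.08, −1.34 and −0.73. Its differences with 4OHT were −0.44 in OSK cells and 0.60 in OSKA cells, and the part of shared binding in the Pou5f1 values was not tested.

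Sox2 and Klf4 were read only outside the coding sequence. The Sox2 probe A_52_P307739 (chromosome 3, 34550773 to 34550832) had intensities of 10.9, 8.89, 13.6 and 9.62 and never rose well above background, so no Sox2 level was measured. A Sox2 vector without the 3' UTR would not be read by it. The Klf4 probe A_55_P2122020 (chromosome 4, 55540167 to 55540226) was bright, with levels of 3.43, 3.24, 3.50 and 3.25. Its differences with 4OHT were −0.20 ± 0.20 in OSK cells and −0.25 ± 0.20 in OSKA cells, or −0.51 and −0.24 under spike-in scaling. Between OSKA and OSK cells Klf4 differed by 0.07 without 4OHT and by 0.01 with 4OHT, or by −0.37 and −0.11 under spike-in scaling.

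Myc, for which the labels name no vector, showed the largest difference among the probes measured on both arrays of a comparison. Probe A_52_P108346 (chromosome 15, 61821417 to 61821476) had levels of 1.70, 1.47, 1.07 and 0.40, and intensities of 1501, 1043, 849 and 505. OSKA +4OHT was the lowest array and both OSKA arrays lay below both OSK arrays. The SD between its 2 spots was 0.056 to 0.138. Between OSKA and OSK cells Myc differed by −0.62 ± 0.20 without 4OHT and by −1.07 ± 0.20 with 4OHT, the latter 2.10-fold lower. With 4OHT it differed by −0.23 ± 0.20 in OSK cells and by −0.67 ± 0.20 in OSKA cells. The contrasts share arrays and are not independent of each other.

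**Figure D3:**
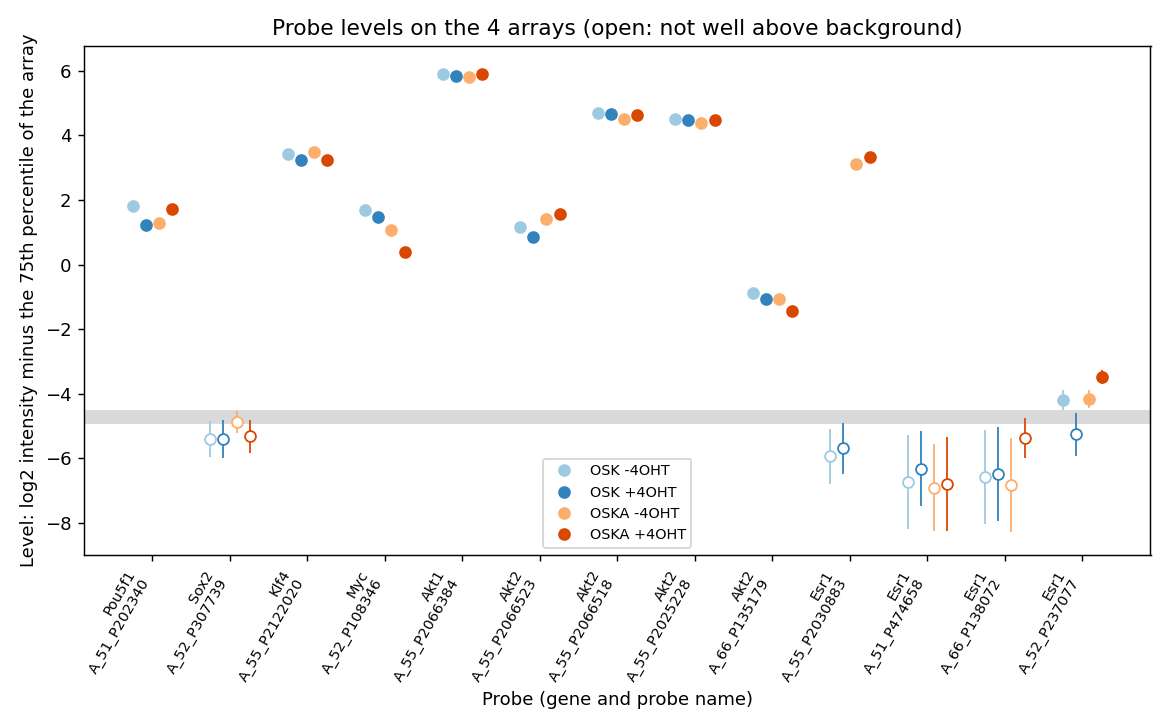
Levels of the 13 probes (log2 intensity minus the 75th percentile of the array) on the 4 arrays. Points are single arrays, open points are not well above background, error bars are the error of the scanner software and the grey band spans the lowest measurable levels. The Esr1 probe A_55_P2030883 is split between OSK and OSKA arrays, Myc lies between 1.70 (OSK -4OHT) and 0.40 (OSKA +4OHT), and Akt1 stays between 5.82 and 5.91.

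Counted over the 13 probes, 8 were measured on both arrays for the 4OHT effect in OSK cells and none differed by 2-fold, where 0.98% of all measured probes did. For the 4OHT effect in OSKA cells none of 10 did, against 2.66%. For the AKT-MER effect without 4OHT none of 9 did, against 2.05%. For the AKT-MER effect with 4OHT 1 of 8 did, against 2.81%, and this was Myc, where 1.09% of all probes were at least 2-fold lower. Under normexp with quantile normalization Myc was at −0.98 and passed in no comparison, and under spike-in scaling it also passed without 4OHT, at −1.06. The medians of the measured probes in these comparisons were −0.18, 0.12, −0.11 and 0.01, and those of all probes were −0.01, −0.04, −0.01 and −0.05. The central 95% of all measured probes lay between −0.76 and 0.85 for the AKT-MER effect with 4OHT, and the kinase domain probe of Akt2 was inside this range. Pou5f1 was outside the range of −0.55 to 0.71 for the 4OHT effect in OSK cells. Among the probes of the uppermost brightness class, to which it belongs, the range was −0.34 to 0.52 for this effect and −0.47 to 0.56 for the AKT-MER effect without 4OHT, and Pou5f1 was below both. It was inside the range of this class for 4OHT in OSKA cells (−0.50 to 0.49) and for AKT-MER with 4OHT (−0.58 to 0.53).

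**Figure D4:**
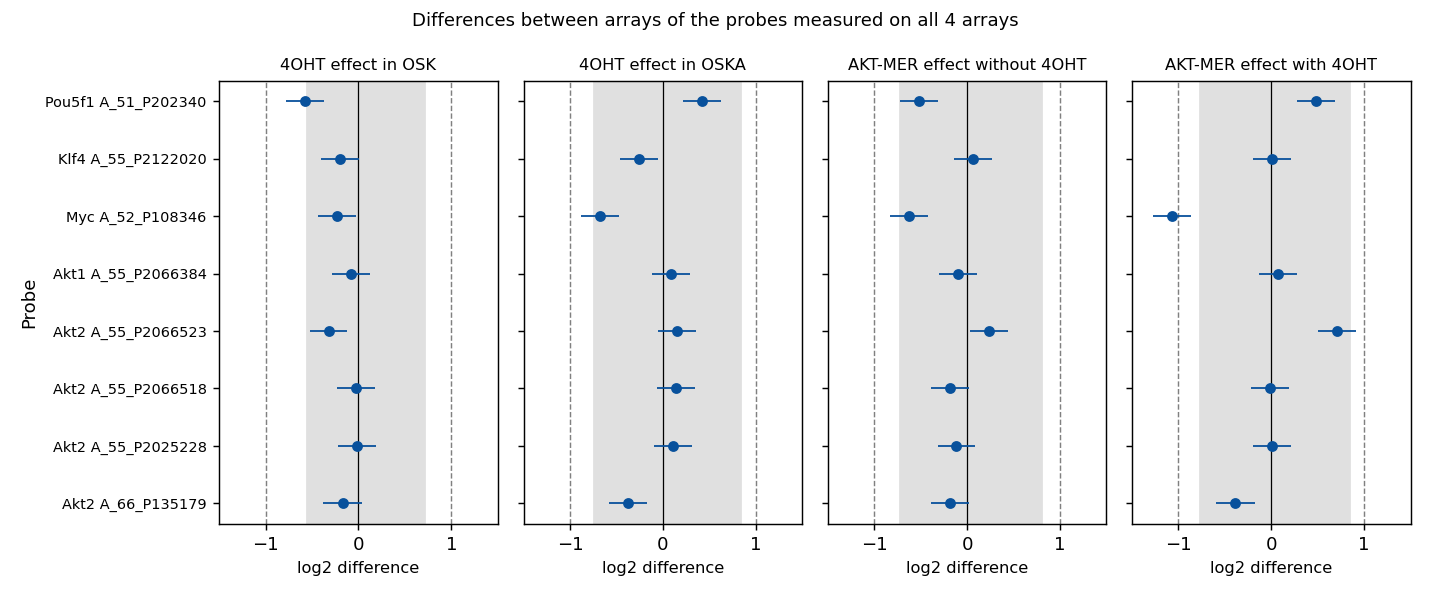
Log2 differences of the 8 probes measured on all 4 arrays, 1 panel per comparison, with error bars from the scanner software. Grey areas hold the central 95% of all measured probes and dashed lines mark 2-fold. Myc passes the 2-fold line for the AKT-MER effect with 4OHT at −1.07, and no other point does.

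The genes around AKT were described through their brightest probes, and counts at 2-fold stand beside 0.98%, 2.66%, 2.05% and 2.81% of all measured probes for 4OHT in OSK cells, 4OHT in OSKA cells, and AKT-MER without and with 4OHT. Of 16 activators of AKT in the PI3K and mTORC2 pathway, all measured, 2 were at least 2-fold higher and 1 was at least 2-fold lower with 4OHT in OSKA cells, where 2.66% of all measured probes passed in either direction, and the list had a median of −0.23 beside −0.04 for all probes. Pik3r3, a regulatory subunit of PI3K, had levels of 0.47, 0.49, 1.06 and 2.94, and its difference with 4OHT was 1.88 ± 0.20 in OSKA cells and 0.02 in OSK cells. Irs2, an adaptor of the insulin receptor, had levels of 4.86, 4.84, 4.46 and 3.43, and its differences were −1.03 and −0.02. Between OSKA and OSK cells with 4OHT, Pik3r3 had 2.44 and Irs2 −1.41. Pik3r1, another regulatory subunit, had levels of 0.33, 0.53, 0.55 and 1.57, with 1.02 ± 0.20 for 4OHT in OSKA cells. Igf1r, the receptor of insulin-like growth factor, had levels of 3.66, 3.47, 3.36 and 2.42, with −1.06 ± 0.20 between OSKA and OSK cells with 4OHT. On all of these genes the OSKA +4OHT array was the one apart, and each was read by 1 probe. Pik3cg, a catalytic subunit best known from blood cells, had 1.04 with 4OHT in OSK cells, and Pik3cd 0.65. Other probes gave 0.69 for Pik3cg, short of 2-fold, and 0.30 and 0.34 for Pik3cd. Between OSKA and OSK cells without 4OHT they had 0.74 and 0.71. Both are blood cell genes, and the macrophage marker sum was 137 times the 75th percentile on OSK -4OHT, 197 times on OSK +4OHT and 194 times on OSKA -4OHT. The part of macrophages in these values was not tested.

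Of 12 inhibitors of the AKT pathway, 1 was at least 2-fold higher in each comparison between OSKA and OSK cells, namely Trib3, a pseudokinase that binds AKT. Its levels were 1.99, 2.24, 3.21 and 3.84, and its differences were 1.22 ± 0.20 without and 1.60 ± 0.20 with 4OHT. The phosphatase gene Inpp4b had 1.02 ± 0.25 with 4OHT in OSK cells, and Inpp5d, a blood cell phosphatase, 0.68. Both were lowest on OSK -4OHT, with levels of −2.04 to −1.98 for Inpp4b on the other arrays and of 1.60, 2.29, 2.23 and 2.12 for Inpp5d, as was the macrophage marker sum (137, 197, 194 and 174 times the 75th percentile). The part of macrophages in these values was not tested either. Deptor, an mTOR inhibitor, differed by −0.38 with 4OHT in OSKA cells.

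Of 16 AKT substrates, only Foxo4, a transcription factor, differed by 2-fold, with −1.49 ± 0.32 for 4OHT in OSKA cells and 1.65 ± 0.34 between OSKA and OSK cells without 4OHT. A second Foxo4 probe whose position is shifted by few bases gave 0.04 in both, so these probes disagree. Nos3, the endothelial nitric oxide synthase, had 0.64 with 4OHT in OSKA cells. The cell cycle inhibitors Cdkn1a and Cdkn1b had 0.43 for the AKT-MER effect without 4OHT and −0.32 for the 4OHT effect in OSK cells. Other probes gave −0.02 and 0.34 for Cdkn1a and −0.06 for Cdkn1b. Tbc1d1, a regulator of glucose transport, had 0.56 for the AKT-MER effect with 4OHT. Of 6 AKT and SGK family kinases none of the 5 measured differed by 2-fold. Values of Sgk1, Sgk3 and Rps6kb2 lay between −0.30 and 0.15 in the comparisons for which they were named.

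None of the 6 measured genes of the estrogen receptor family differed by 2-fold. Esr2, the paralog of Esr1, had levels of 1.56, 1.82, 1.99 and 1.53 and did not separate OSK from OSKA arrays. Gper1, a membrane receptor, had −0.78 ± 0.22 with 4OHT in OSKA cells. In OSK cells with 4OHT Gper1 had −0.61 and the orphan receptor Esrrg −0.60. Of the estrogen-responsive genes, 2 of 12 measured were at least 2-fold lower with 4OHT in OSKA cells, Greb1 with −1.14 ± 0.21 and Ccn5 with −1.09 ± 0.20, beside 2.66% of all measured probes in either direction. Pdzk1, a scaffold protein, was not well above background on OSKA +4OHT and had a bound of −1.01, where 12.3% of the probes measured only without 4OHT were at least 2-fold lower by such a bound. Greb1, a coactivator of the receptor, also had −0.90 ± 0.22 in OSK cells, which carry no AKT-MER, whereas Ccn5 had −0.01 there. A second Greb1 probe gave −0.68 in OSKA cells and −0.38 in OSK cells. Krt19, a keratin, had −1.29 ± 0.20 between OSKA and OSK cells with 4OHT and −0.60 without. Ctsd, a lysosomal protease, had 0.64 with 4OHT in OSK cells by its brightest probe and 0.03 by another, on the arrays between which the macrophage marker sum was 137 and 197, and Ltf −0.68 for the AKT-MER effect without 4OHT.

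Of 16 paralogs of the reprogramming factors, 11 were measured, and Sox4 alone differed by 2-fold, with 1.02 ± 0.20 between OSKA and OSK cells with 4OHT. Further Sox4 probes gave 0.19 and 0.30. Klf5 had −0.93 with 4OHT in OSKA cells and −0.97 for AKT-MER with 4OHT, Pou3f1 had 0.74 in the former, Pou5f2 had 0.38 with 4OHT in OSK cells and Sox11 had −0.60 for AKT-MER without 4OHT. Mycn, a paralog of Myc, had low but measurable levels of −3.11, −3.73, −3.85 and −3.50, with differences of −0.63 and 0.35 for 4OHT in OSK and OSKA cells and of −0.74 and 0.23 for AKT-MER without and with 4OHT, and Mycl was at background on each array. None of the 8 measured MYC partners and antagonists differed by 2-fold. Mnt, a repressor that competes with MYC for MAX, had −0.52 with 4OHT in OSKA cells and −0.57 for AKT-MER with 4OHT, Mxd1 had −0.46 in the former (0.05 by its other probe) and Mxd3 0.45 in the latter. The 14 retroviral silencing factors, which shut down vectors of the kind used here, all stayed below 2-fold. The de novo DNA methyltransferases Dnmt3a and Dnmt3b had 0.31 and −0.32 for AKT-MER with 4OHT. Zfp809, which recruits silencing to proviruses, had −0.32 for AKT-MER without 4OHT, and Cbx5, Dnmt1 and Chaf1b had 0.18, 0.18 and 0.22 in the 4OHT contrasts for which they were named. Second probes gave 0.36 for Zfp809 and −0.21 for Cbx5, of opposite sign.

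For 4OHT in OSKA cells the medians were −0.04 for the AKT pathway inhibitors, 0.05 for the substrates, 0.03 for the AKT and SGK family, −0.30 for the estrogen receptor family and −0.10 for the estrogen-responsive genes. They were 0.03 for the paralogs of the reprogramming factors, −0.19 for the MYC partners and 0.04 for the silencing factors, beside −0.04 for all probes. For 4OHT in OSK cells the estrogen receptor family had a median of −0.26, and the other medians lay between −0.12 and 0.01.

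**Figure D5:**
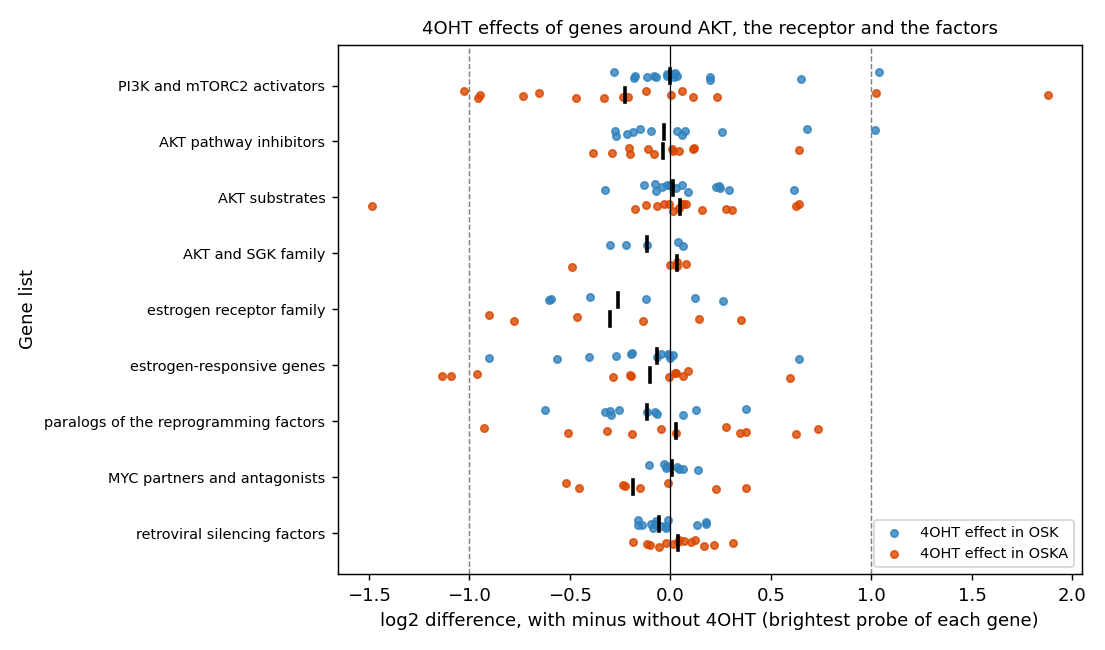
Log2 differences with against without 4OHT for the measured genes of the 9 lists (brightest probe of each gene), in OSK cells (blue) and OSKA cells (orange). Points are genes, black bars are list medians and dashed lines mark 2-fold. Pik3r3 is the rightmost orange point at 1.88 and Foxo4 the leftmost at −1.49.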

How the data were processed

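RNA of 4 samples (100 ng each) was labelled and hybridised to Agilent arrays in 1 channel. The scanner files deposited by the authors hold intensity values of each spot on a linear scale, corrected for background by Feature Extraction 10.7.3.1 and not normalized between arrays. The deposited series matrix holds the same intensity, rounded (ratios of 0.995 to 1.005), with column medians of 19.6 to 23.8, on a linear scale and without centring. Spots marked as uneven or as outliers (104 to 155 per array) were left out. Log2 intensities were reduced by the 75th percentile of each array and spots of a probe were averaged. Probes not well above background were set at the higher of their own level and the lowest measurable level of the array, which gives lower bounds ("at least"). Differences were counted at 2-fold. No p-value was computed with 1 array per group, whose number limits the precision. The code of these steps was checked on simulated data with large planted changes and less spread than the real differences. That check does not measure precision.

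RefSeq accessions gave 49.4% of probes their gene name (GRCm38.p6, used for names only). Coordinates are those of the files (NCBI37). Probe sequences came from the scanner files. Sequences shared with other probes were searched with a minimum run of 20 bases, and gaps within a transcript used probes at least 60 bases apart. Of 112 genes in 9 lists, 111 were on the array. Named genes were all probes of the 7 genes, Esr2, Mycn and Mycl, the 2 genes of each list with the largest difference per comparison, and the 5 named probes most like the Esr1 probe. Pik3r1, Igf1r, Pdzk1 and further probes of list genes were added after their values were seen. A few genes that the rule selects are not reported here. The members, lists and rules were chosen with earlier results of these data known. Endothelial, epithelial, muscle and neural markers had 3 of 5, 4 of 5, at most 1 of 4 and 2 to 3 of 4 measured. Python 3.11.15, numpy 2.4.6, pandas 2.3.3, R 4.3.3 and limma 3.58.1 were used.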

Additional observations from a re-analysis of the deposited data

Results flagged for a closer look

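The 4OHT effect on the Pou5f1 probe A_51_P202340 ran in opposite directions in the 2 kinds of cells, with −0.58 in OSK cells and 0.43 in OSKA cells. The OSKA value lay inside the central 95% of bright probes (−0.50 to 0.49) and the OSK value outside (−0.34 to 0.52). Under spike-in scaling the values were −0.89 in OSK cells and 0.44 in OSKA cells. Each difference exceeded the error of the scanner software (0.20), and the difference between them was not tested, since each rests on 1 array per group.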

How the results depend on the processing

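No paired analysis was possible because each group had 1 array and no replicate numbers. Over 9 alternatives, apart from the Esr1 bounds given below, 22 values of single probes moved by more than the software error, 18 of them under spike-in scaling, 269 did not, and none that passed 2-fold changed sign. The Esr1 probe ranked first among probes measured in OSKA cells only under every alternative that was run for this ranking. The count of 508 rests on the background marks of the scanner software, which scaling does not alter. Normexp with quantile normalization gave Esr1 bounds of 5.52 without and 5.69 with 4OHT, 0 of 8 member probes at 2-fold for AKT-MER with 4OHT (Myc at −0.98), and 0 and 1 list genes at 2-fold for 4OHT in OSK cells and AKT-MER without 4OHT, in place of 2 each. Under it, 26 probes were higher and 10 lower for 4OHT in OSK cells (180 and 89 otherwise), 192 and 39 for 4OHT in OSKA cells (503 and 248), 49 and 52 for AKT-MER without 4OHT (322 and 253) and 213 and 72 for AKT-MER with 4OHT (474 and 298). Quantile normalization gave 1 list gene for 4OHT in OSK cells, and moved the split for AKT-MER without 4OHT to 281 higher and 295 lower. Spike-in scaling shifted the median of all probes to −0.32, −0.03, −0.46 and −0.17 in the 4 comparisons. It gave a bound of 7.33 without 4OHT, 1 member probe for AKT-MER without 4OHT (Myc at −1.06), and 1 and 6 list genes for 4OHT in OSK cells and AKT-MER without 4OHT. Under it, 48 probes were higher and 334 lower for 4OHT in OSK cells, 65 and 1272 for AKT-MER without 4OHT and 374 and 446 for AKT-MER with 4OHT. Without a filter on dim probes, the Esr1 differences were 9.04 and 9.01, and 1, 1, 1 and 4 of 13 member probes passed 2-fold. Of all 55679 probes, 2229 were then higher and 2143 lower for 4OHT in OSK cells. For 4OHT in OSKA cells 3040 and 2458 of 55677 were. For AKT-MER 2534 and 2583 of 55677 were without and 2727 and 2419 of 55679 with 4OHT. At 1.5-fold, 0 of 8, 2 of 10, 1 of 9 and 2 of 8 measured member probes passed in the 4 comparisons. Of the list genes, 10 of 101, 20 of 100, 12 of 101 and 15 of 100 passed, in place of 2, 6, 2 and 7. Of all 27449 measured probes, 1296 were higher and 570 lower at 1.5-fold for 4OHT in OSK cells. For 4OHT in OSKA cells 1365 and 1416 of 28219 were. For AKT-MER 1718 and 1149 of 28032 were without and 1438 and 1452 of 27443 with 4OHT. The cause of these changes was not tested. Signal over background limits the Sox2 probe and the Esr1 probes outside the ligand-binding domain, for which a small difference would not be detectable.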
